A study of Mus musculus with 16 samples.

Results

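The 42 genes described here encode proteins of the lysosome and of autophagy in the mouse: 9 proteases, 11 glycosidases, 5 sulfatases or sulfamidases, 3 enzymes that act on lipids or on fatty acyl groups, 2 cholesterol exporters, 2 precursors of lysosomal cofactors, 5 membrane proteins or receptors, 3 autophagy receptors or Atg8 proteins, and the transcription factors Tfeb and Tfe3. The list names them by gene symbol and applies no cut on a measured value, but it was chosen with earlier results of these data known. The 42 were all among the 23167 gene identifiers present for both sexes. All 42 passed the filter on low counts in males, in females and in the joint fit of both sexes.

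Poly(A) RNA of liver tissue was sequenced from 16 mice, 1 library each. The 4 male LKO and 4 female LKO mice carried floxed Matr3 alleles and Cre recombinase under the albumin promoter, which is active in hepatocytes. Deletion in other cells of the liver was not examined here. Their controls were 4 male floxed and 4 female floxed mice labelled as carrying the floxed alleles, with no Cre named, and described as littermates. Matr3 encodes matrin-3, a nuclear matrix protein that binds RNA. Every mouse, floxed or LKO, ate food in which fat supplied 60% of the energy, for 16 weeks from the age of 7 weeks, and was fasted for 12 hours before the liver was taken. No group on another diet, and none without a fast, was analysed here. The libraries held 30495505 to 36496193 counts. The study's question for these genes, as its design implies it, is whether loss of Matr3 in hepatocytes of fat-fed mice goes with other transcript levels, in each sex.

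Lysosomes degrade material delivered by endocytosis and by autophagy. Soluble hydrolases work at the acid pH set by the vacuolar ATPase, membrane proteins such as LAMP-1 and LAMP-2 line the inner face, and autophagosomes, built with Atg8 proteins such as LC3B, bring cytosolic cargo for digestion. In the liver, autophagy is induced by fasting and also takes up lipid droplets. TFEB and TFE3 are related basic helix-loop-helix factors that enter the nucleus when the kinase complex mTORC1 is inactive, and they bind a short element, an E-box with the core CACGTG, in the promoters of many lysosomal genes.

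The LKO and floxed values of Matr3 itself did not overlap in either sex. It averaged 35.4 ± 1.55 CPM (each count as a share of its library size, scaled by the trimmed mean of M values, TMM) in LKO males and 57.8 ± 3.72 CPM in floxed males, 61.3% of the floxed mean, and 38.1 ± 1.36 CPM in LKO females and 58.1 ± 4.95 CPM in floxed females, 65.5% of the floxed mean (SD, n = 4 each). An exact two-sided permutation test gave p = 0.0286 in each sex, the lowest value possible with 70 ways to split 8 libraries into groups of 4. Hepatocyte markers summed to 64094 to 80973 CPM in LKO females, 77383 to 86128 CPM in floxed females, 83760 to 94801 CPM in LKO males and 77875 to 97579 CPM in floxed males. These sums depend much on Alb, the largest of the 12 markers, at 17335 to 30347 CPM in LKO and 42313 to 49505 CPM in floxed females. The median log2 fold change of the 12 in LKO against floxed females was positive, at 0.45. Female floxed 4 and female LKO 7 lay apart from the other libraries of their groups: on the first principal component of the female libraries, LKO 7 stood at -6.58 against -40.8 to -31.6 for the other LKO females, and floxed 4 at 10.3 against 32.7 to 38.7 for the other floxed females. Results that rest on these 2 libraries are given with and without them. Male floxed 1 and 2 carry mouse numbers far from all others, and results are also given without this pair where it ends a call.

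The promoters of the genes differ in the element that TFEB and TFE3 bind. RefSeq promoter windows (GRCm38.p6), which run from 250 bases before to 50 bases after a transcript start, were matched by symbol for 37 of the 42 genes. Of these, 12 (32.4%) held the core CACGTG, which reads the same on both strands, against 8.09% of 27025 genes with a window. The longer TCACGTG, searched on both strands and containing the core, was in 11 of the 37 (29.7%) and in 4.29% of all genes. The 12 genes were Lamp1, Mcoln1, Gla, Ctsd, Ctsa, Cln3, Sgsh, Naglu, Glb1, Gaa, Ctsl and Arsa. The stretches printed next lie before the RefSeq transcript start, outside the annotated exons of the gene, and run 5′ to 3′ on the strand of the gene, with the core in capitals. They show the window richest in the core (Lamp1, chr8:13159041-13159160, plus strand), a lysosomal calcium channel with 1 of its 2 cores (Mcoln1, chr8:3500349-3500456, plus strand), and 4 genes that rose in LKO females: Arsa (chr15:89477426-89477524, minus strand), Ctsl (chr13:64370741-64370770, minus strand, 30 bases around its only core, in an intron of a longer GENCODE transcript), and Grn (chr11:102430257-102430314, plus strand) and Map1lc3b (chr8:121590241-121590360, plus strand), whose windows held no core.
Lamp1: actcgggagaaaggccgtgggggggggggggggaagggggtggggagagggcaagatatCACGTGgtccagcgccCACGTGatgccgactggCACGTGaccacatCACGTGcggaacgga
Mcoln1: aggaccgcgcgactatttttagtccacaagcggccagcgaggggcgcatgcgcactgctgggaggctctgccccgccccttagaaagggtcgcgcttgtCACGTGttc
Arsa: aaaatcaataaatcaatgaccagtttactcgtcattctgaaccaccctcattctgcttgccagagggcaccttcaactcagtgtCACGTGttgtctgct
Ctsl: gcggcgttagaagcCACGTGctgatctaaa
Grn: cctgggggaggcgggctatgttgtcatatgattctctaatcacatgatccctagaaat
Map1lc3b: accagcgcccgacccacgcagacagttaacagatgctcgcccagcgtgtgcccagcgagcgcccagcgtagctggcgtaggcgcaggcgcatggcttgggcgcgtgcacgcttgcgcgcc
Lamp1 held 4 cores within its last 61 bases before the start, at positions -61, -45, -28 and -15. Those of Mcoln1 lay at -71 and -45, and that of Arsa at -16.

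**Figure D1:**
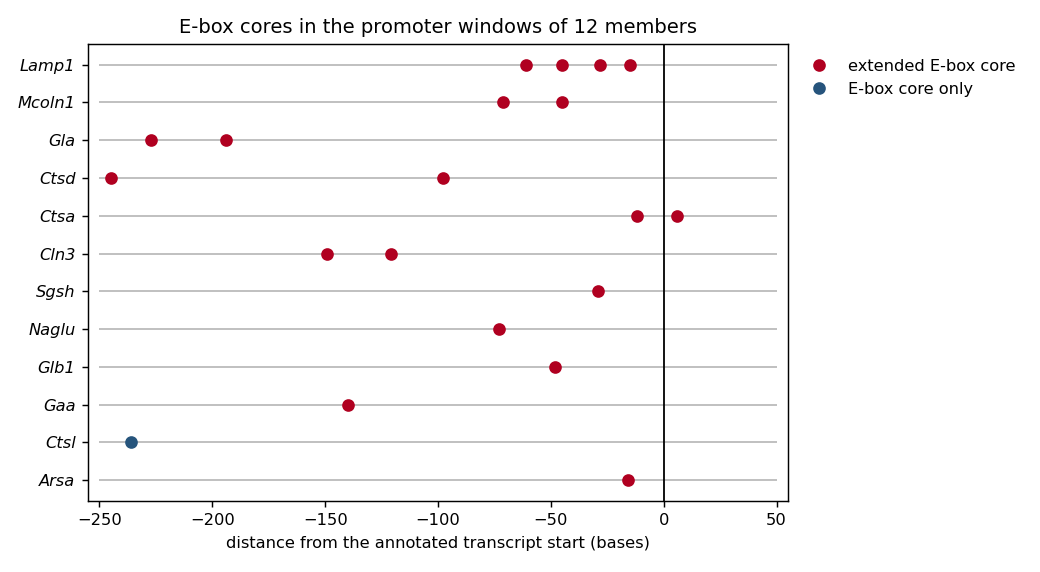
Position of each E-box core in the promoter windows of the 12 genes that held one, as distance in bases from the annotated transcript start (vertical line). Red points are cores within the longer motif, the blue point is the core alone; Lamp1 has 4 points, and Ctsl has only the blue one.

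Per length of annotated exon, the levels of the 42 transcripts spanned a wide range. In floxed females the lowest was Tfeb at 1.77 ± 0.344 CPM per kb. In LKO females the highest was Psap, the precursor of the saposins that activate lipid-cleaving hydrolases, at 303 ± 3.69 CPM per kb, followed by Lamp1 at 256 ± 14.9, Gabarapl1 at 247 ± 25.0 and Ctsz at 229 ± 37.7 CPM per kb (SD, n = 4). The order near the top differed with sex. Lamp1 was first in LKO males (310.4 ± 16.7 CPM per kb) and in floxed males (289 ± 25.0 CPM per kb), where Psap had rank 3 (242 ± 9.19 and 231 ± 10.97 CPM per kb). In floxed males Gabarapl1, at 285 ± 53.0 CPM per kb, was close to Lamp1, with spreads that overlapped. In LKO females Psap stood apart from the next, while Lamp1, Gabarapl1 and Ctsz had spreads that overlapped. These orders are descriptions with no test. Together the 42 transcripts made up 0.839% to 0.861% of all counts in LKO females and 0.745% to 0.863% in floxed females, ranges that overlap, against 0.706% to 0.726% in LKO males and 0.638% to 0.777% in floxed males. The coefficient of variation between mice of 1 group had a median over the genes of 9.23% in LKO females, 8.97% in floxed females, 5.55% in LKO males and 8.31% in floxed males. The most variable members were Ctsc in LKO females (28.4%), Arsa in floxed females (25.5%) and Ctss in both male groups (16.7% in LKO and 25.4% in floxed males).

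**Figure D2:**
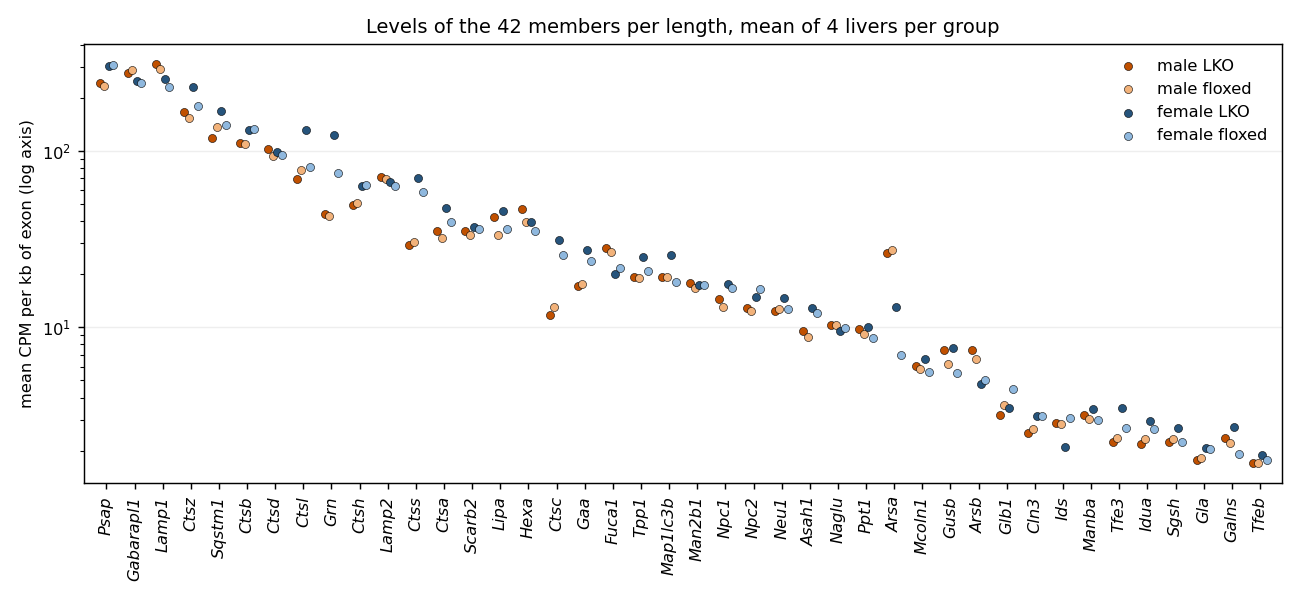
Mean level of each of the 42 transcripts in CPM per kb of annotated exon (log axis), 4 livers per group, ordered by the mean in floxed females. Psap, Gabarapl1 and Lamp1 lead; Arsa is the transcript with the widest gap between floxed females (light blue) and floxed males (light orange).

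In LKO females 5 of the 42 transcripts rose and 1 fell (14.3% of the genes, where 9.29% of all 15432 genes tested were called, 4.44% higher and 4.85% lower). Those that rose were Ctsl, Map1lc3b, Arsa, Grn and Gusb, coding for a protease, an Atg8 protein, a sulfatase, progranulin and a glycosidase. Ids, which codes for another sulfatase, fell. A gene was called at an adjusted p under 0.05 in edgeR's quasi-likelihood test, adjusted over all genes tested. Each p sets the difference between groups against the spread between mice. Over the 42 genes the median log2 fold change was 0.16, against 0.00 over all genes, and 33 of 42 had a positive value, against 50.2% of all genes. LKO and floxed females did not overlap for 8 of the 42 genes (16% of all genes, 8.04% higher and 7.91% lower): 7 were higher in LKO females (Ctsl, Map1lc3b, Arsa, Gusb, Galns, Sgsh and Mcoln1) and Ids was lower. In these whole-liver data, fewer cells of a type and less RNA per cell cannot be told apart.

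Ctsl led the proteases. It codes for cathepsin L, a cysteine endopeptidase that cleaves proteins taken up by endocytosis or autophagy (ENSMUSG00000021477, chr13:64359337-64370890, minus strand, mm10). Its levels were 930.1, 792, 819.9 and 851 CPM in LKO females 5 to 8, against 465, 528, 546 and 559 CPM in floxed females 1 to 4. Every LKO female lay above every floxed female, 1.62-fold by the fit (log2 fold change 0.69, SE 0.10, adjusted p = 0.00635). The other 8 proteases did not pass the test in females. Among them were Ctsb, whose product is a cysteine protease with endopeptidase and carboxypeptidase activity, at 741, 866, 855 and 702 CPM in LKO females and 735, 801, 819 and 863 CPM in floxed females, groups that overlapped (log2 fold change -0.03, SE 0.11, adjusted p = 0.898), and Ctsd, the aspartic protease cathepsin D (log2 fold change 0.05, SE 0.10, adjusted p = 0.765). Ctsz (0.34, adjusted p = 0.182), Ctss (0.25, adjusted p = 0.318) and Tpp1 (0.26, adjusted p = 0.118) had positive log2 fold changes as well.

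Map1lc3b was the called member of the autophagy group. It codes for LC3B, which is joined to a lipid of the autophagosome membrane and holds cargo receptors there (ENSMUSG00000031812, chr8:121590361-121598760, plus strand). Its levels were 217, 197, 163 and 199 CPM in LKO females, against 134, 140.3, 131 and 135 CPM in floxed females. The lowest LKO female, number 7, was still above the highest floxed female (log2 fold change 0.52, SE 0.10, adjusted p = 0.0135). Sqstm1, the gene of the cargo receptor p62, which LC3B binds, had 571, 489, 568 and 640.4 CPM in LKO females and 480.2, 414, 498 and 491 CPM in floxed females. The groups overlapped, and it did not pass the test (log2 fold change 0.27, SE 0.11, adjusted p = 0.144). Gabarapl1, the gene of a second Atg8 protein, gave 449.8 to 568 CPM in LKO and 441 to 546 CPM in floxed females (log2 fold change 0.02, SE 0.11, adjusted p = 0.921).

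Grn codes for progranulin, a secreted and lysosomal protein that is cut into granulins and whose loss in humans causes frontotemporal dementia or a neuronal storage disease (ENSMUSG00000034708, chr11:102430315-102437048, plus strand). It measured 504, 432, 336 and 431 CPM in LKO females and 237, 228, 224 and 354 CPM in floxed females. Floxed female 4 was above LKO female 7, and the other libraries did not overlap (1.63-fold, log2 fold change 0.70, SE 0.17, adjusted p = 0.0354). Psap, the other cofactor precursor, stood at 829, 845, 828 and 820.4 CPM in LKO females and 922, 740.4, 727 and 977 CPM in floxed females. Its 4 LKO values lay within the floxed range (log2 fold change -0.02, SE 0.12, adjusted p = 0.925).

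Of the 11 glycosidases Gusb rose. Beta-glucuronidase, its product, removes glucuronic acid from glycosaminoglycans (ENSMUSG00000025534, chr5:129989011-130003049, minus strand). LKO females had 39.3, 31.9, 33.4 and 33.8 CPM and floxed females 21.7, 23.6, 23.1 and 31.3 CPM, with floxed female 4 just under the lowest LKO female (log2 fold change 0.47, SE 0.12, adjusted p = 0.0418). The gap between the groups is thus narrow. Glb1, the gene of the beta-galactosidase, had the lowest log2 fold change of the glycosidases at -0.36 (SE 0.12, adjusted p = 0.0882), with 10.6, 12.1, 10.996 and 8.33 CPM in LKO and 13.8, 14.3, 13.9 and 11.9 CPM in floxed females, where LKO female 6 was above floxed female 4. Hexa, coding for the alpha subunit of beta-hexosaminidase, gave 79.7, 78.4, 67.7 and 88.1 CPM in LKO and 63.3, 72.8, 72.3 and 71.4 CPM in floxed females (log2 fold change 0.16, SE 0.09, adjusted p = 0.279). Neither passed the test, and the 11 glycosidases had a median log2 fold change of 0.15.

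The sulfatases moved in both directions. Arsa codes for arylsulfatase A, which cleaves the sulfate of sulfatides, lipids of myelin and other membranes (ENSMUSG00000022620, chr15:89472476-89477425, minus strand). It had 42.2, 65.3, 37.8 and 47.5 CPM in LKO females and 18.7, 25.5, 34.6 and 24.4 CPM in floxed females, with no overlap, and was 1.87-fold higher by the fit (log2 fold change 0.90, SE 0.20, adjusted p = 0.0272). Ids codes for iduronate 2-sulfatase, which acts on heparan and dermatan sulfate, and it lies on the X chromosome (ENSMUSG00000035847, chrX:70343069-70365084, minus strand). It had 9.67, 10.5, 10.9 and 11.6 CPM in LKO females, all below the 13.8, 18.5, 17.6 and 12.6 CPM of floxed females (log2 fold change -0.55, SE 0.13, adjusted p = 0.0306). Galns (log2 fold change 0.51, SE 0.14, adjusted p = 0.0541), which acts on keratan and chondroitin sulfate, and Sgsh (log2 fold change 0.28, SE 0.09, adjusted p = 0.0682), the heparan sulfamidase, did not pass the test although their groups did not overlap. The interval of Arsb, -0.24 to 0.09 (95%, log2), included 0.

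The factors and the membrane proteins gave no call in females. Tfeb measured 11.3, 12.9, 9.77 and 8.61 CPM in LKO females and 12.5, 8.41, 8.54 and 10.7 CPM in floxed females, with overlap (log2 fold change 0.08, SE 0.16, adjusted p = 0.777). Tfe3 measured 34.6, 32.2, 28.3 and 33.8 CPM in LKO females and 25.6, 21.5, 21.4 and 30.5 CPM in floxed females. Floxed female 4 was above LKO female 7, and the test was not passed (log2 fold change 0.38, SE 0.12, adjusted p = 0.0824). Lamp1 had 679.8, 729, 694 and 633 CPM in LKO females and 569, 651, 612 and 627 CPM in floxed females, with overlap (log2 fold change 0.15, SE 0.09, adjusted p = 0.303). Mcoln1, coding for the calcium channel of the lysosome, gave 46.0 to 54.7 CPM in LKO and 41.6 to 43.3 CPM in floxed females (log2 fold change 0.23, SE 0.07, adjusted p = 0.0692). Among the 37 genes with a promoter window, 2 of the 12 that hold the core rose in LKO females (Ctsl and Arsa), with a median log2 fold change of 0.18. Of the 25 without it, 3 rose and 1 fell, with a median of 0.20.

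**Figure D3:**
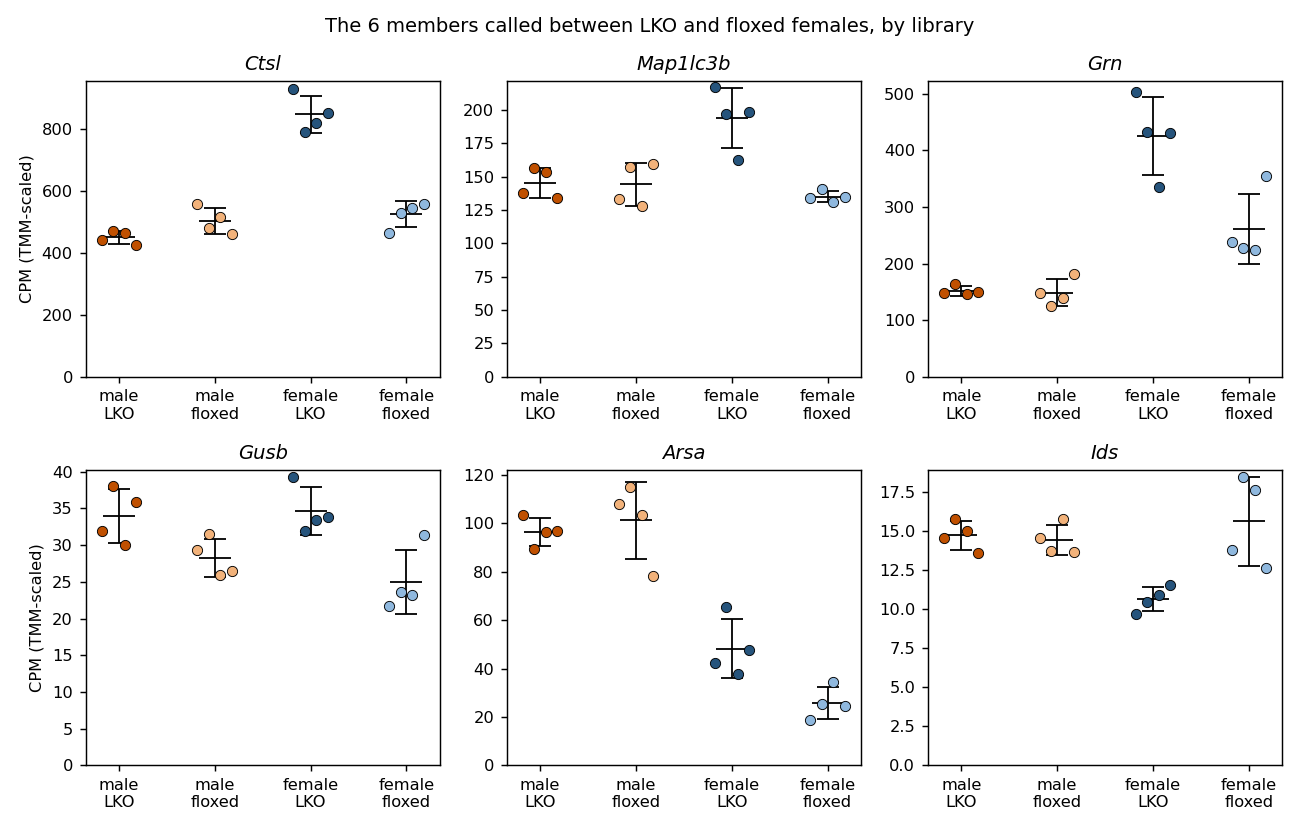
TMM-scaled CPM of the 6 transcripts called in LKO against floxed females, in all 16 livers (points), with the mean and SD of each group of 4 (bars). Ctsl, Map1lc3b, Grn, Gusb and Arsa stand higher and Ids lower in LKO females, while the male groups overlap for each of the 6.

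Most of these calls depended on which mice entered the test. Ctsl and Map1lc3b passed the test without any 1 library (highest adjusted p 0.0268 and 0.0485). Arsa lost its call without LKO female 5, 6 or 8 or floxed female 1 or 2 (adjusted p up to 0.0767). Grn, Gusb and Ids lost theirs without LKO female 5, 6 or 8 or floxed female 1, 2 or 3 (up to 0.105, 0.117 and 0.0912). The number of called genes was 2 without LKO female 5 or 6 or floxed female 1 or 2, 3 without LKO female 8 or floxed female 3, and 9 without LKO female 7 or floxed female 4. The share over all genes moved with it, at 2.53% to 4.36% where 2 or 3 of the 42 were called and at 14.7% (without LKO female 7) and 12.9% (without floxed female 4) where 9 were. With 1 library left out, the log2 fold change ran from 0.72 to 1.07 for Arsa, from 0.61 to 0.89 for Grn, from 0.40 to 0.60 for Gusb and from -0.64 to -0.46 for Ids. Without both of the libraries that lay apart, 15 of the 42 were called, 14 higher and Ids lower, where 19.6% of 15457 genes were. The 6 genes of the full comparison were among the 15. The 9 others were Ctsa, Ctss, Ctsz, Gaa, Galns, Tfe3, Tpp1, Manba and Neu1, with log2 fold changes of 0.33 to 0.59. Grn then stood at 0.99 and Tfe3 at 0.56. In component values, the livers left out (LKO 7 at -6.58, floxed 4 at 10.3) were those of each group nearest to the opposite group. Leaving such livers out can by itself widen the gap and narrow the spread. The 15 calls are therefore no independent test of the deletion, and no conclusion is drawn from them. With library totals in place of TMM, 6 genes were called, 4 higher and 2 lower, and 5 of these were among the 6 named here. Gusb lost its call there (adjusted p = 0.0729).

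In males no member was called (0 of 42, where 1.04% of all 15355 genes tested were, 0.528% higher and 0.514% lower). By edgeR's unadjusted p under 0.05 there were 6, 5 higher (Hexa, Lipa, Gusb, Ctsd and Ctsa) and Ctsl lower, or 14.3% of the genes where 12.3% of all genes were, and DESeq2 called 2, Hexa and Lipa, both higher in LKO males, where it called 2.98% of all genes. The median log2 fold change was 0.03, against -0.01 over all genes. Lipa codes for lysosomal acid lipase, which frees cholesterol and fatty acids from lipids delivered to the lysosome. It had 265, 289, 259.8 and 326 CPM in LKO males, all above the 254, 238, 212 and 197 CPM of floxed males (log2 fold change 0.34, SE 0.10, adjusted p = 0.157). Hexa had 89.0, 98.6, 89.3 and 97.2 CPM in LKO males and 80.5, 86.1, 72.5 and 77.1 CPM in floxed males, again with no overlap (log2 fold change 0.24, SE 0.07, adjusted p = 0.151). Ctsa, the protective protein that stabilises beta-galactosidase and sialidase, was the last of 3 genes whose male groups did not overlap (8.06% of all genes, 3.92% higher and 4.14% lower), with 171, 164, 158 and 168 CPM in LKO males and 154, 150.1, 146 and 157 CPM in floxed males (log2 fold change 0.12, SE 0.05, adjusted p = 0.377).

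The 6 genes called in females gave overlapping groups in males. Ctsl had 441, 471, 463 and 427 CPM in LKO males and 559, 480.0, 514 and 462 CPM in floxed males (log2 fold change -0.16, SE 0.07, adjusted p = 0.399). Its log2 fold change is opposite in sign to that in females, with a 95% interval of -0.32 to -0.0028. Map1lc3b had 138, 156, 153 and 134 CPM in LKO males and 133, 157, 128 and 159 CPM in floxed males (log2 fold change 0.01, SE 0.09, adjusted p = 0.984). Grn had 147, 164, 146 and 150.0 CPM in LKO males and 148, 125, 139 and 182 CPM in floxed males (log2 fold change 0.03, SE 0.10, adjusted p = 0.949). The male means were 145 ± 11.3 CPM in LKO and 144 ± 16.1 CPM in floxed livers for Map1lc3b, and 152 ± 8.48 CPM and 149 ± 24.3 CPM for Grn (SD, n = 4 each). Arsa had 104, 89.4, 96.4 and 96.8 CPM in LKO males and 108, 115, 103 and 78.3 CPM in floxed males (log2 fold change -0.07, SE 0.11, adjusted p = 0.869). Ids had 14.6, 15.8, 15.03 and 13.6 CPM in LKO males and 14.5, 13.7, 15.8 and 13.7 CPM in floxed males (log2 fold change 0.03, SE 0.08, adjusted p = 0.930). Gusb, with 31.9, 38.1, 30.03 and 35.9 CPM in LKO males and 29.3, 31.5, 25.9 and 26.5 CPM in floxed males, was the one whose log2 fold change was positive in both sexes and had an unadjusted p under 0.05 in both (log2 fold change 0.26, SE 0.09, adjusted p = 0.255). The factors and the receptor p62 were not called either. Tfeb measured 11.6, 8.92, 9.09 and 8.80 CPM in LKO males and 8.47, 10.7, 9.54 and 10.1 CPM in floxed males (log2 fold change -0.01, SE 0.11, adjusted p = 0.984), and Tfe3 21.1, 21.0, 20.3 and 20.8 CPM in LKO males and 24.7, 21.8, 21.8 and 19.6 CPM in floxed males (log2 fold change -0.08, SE 0.07, adjusted p = 0.738). Sqstm1 had 411, 376, 397 and 399 CPM in LKO males and 559, 473, 419 and 369 CPM in floxed males, the highest value being that of floxed male 1 (log2 fold change -0.20, SE 0.11, adjusted p = 0.510).

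**Figure D4:**
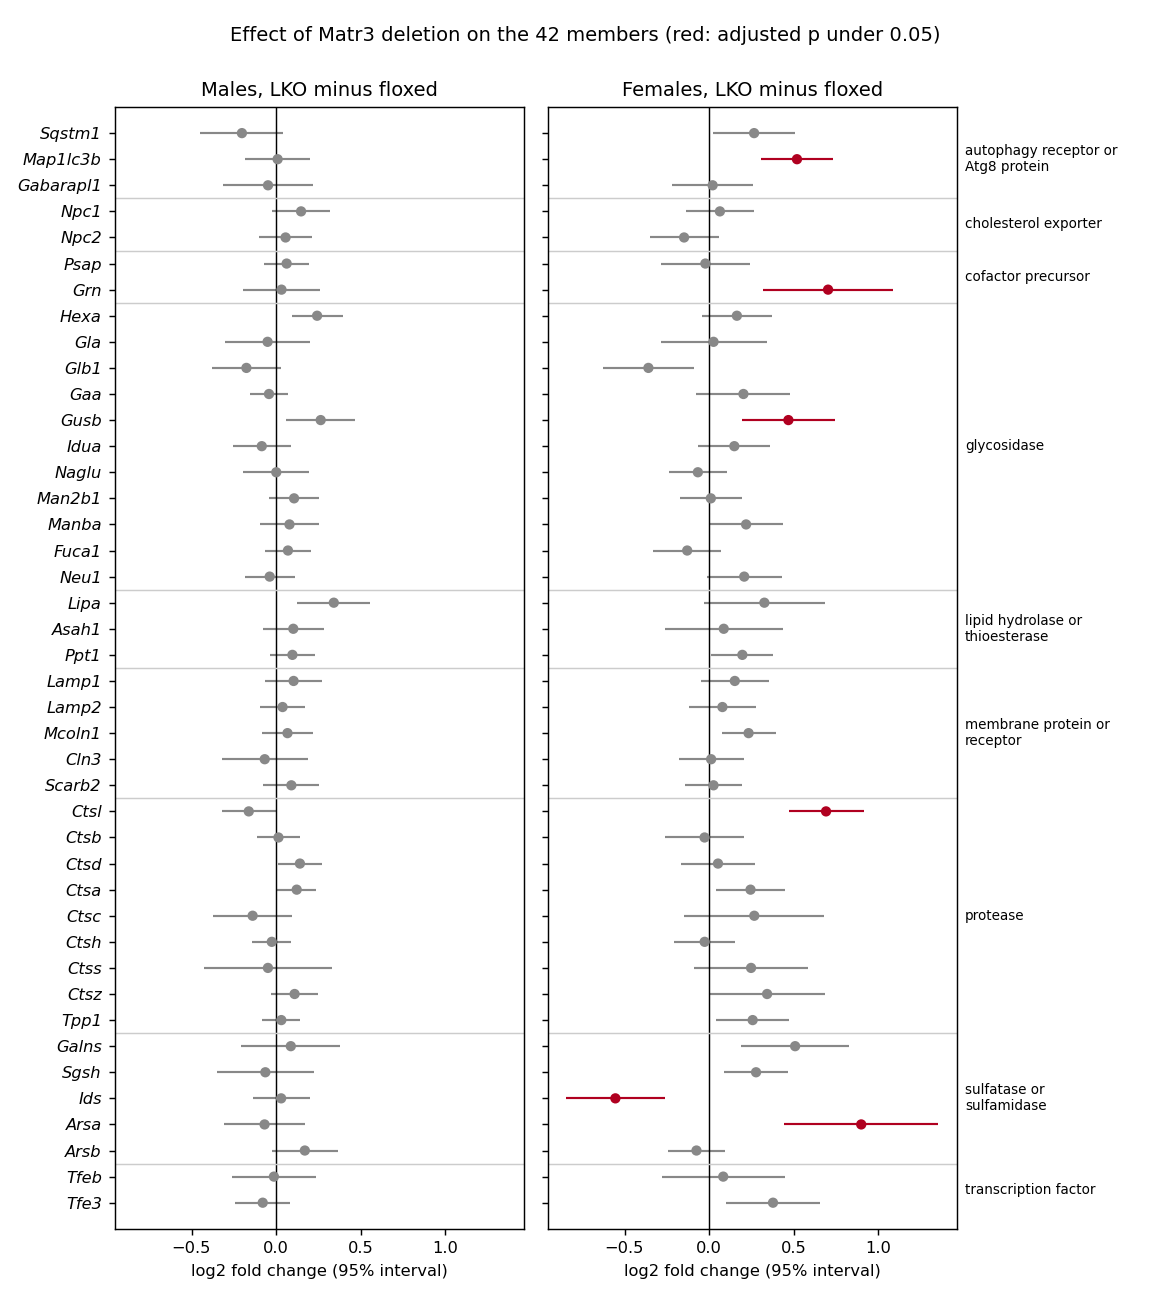
Log2 fold change of LKO over floxed livers for each of the 42 genes in males (left) and females (right), with 95% intervals, grouped by role; red marks an edgeR adjusted p under 0.05. No point is red in males; in females 5 red points lie to the right of 0 and Ids to the left.

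The effect of the deletion was then compared between the sexes in 1 fit of all 16 libraries. The difference, the effect in females minus that in males, was called for 4 of the 42 genes (9.52%, where 4.42% of all 16126 genes tested were, 1.97% positive and 2.45% negative). It was positive for Ctsl (0.86, SE 0.12, adjusted p = 0.00235), Map1lc3b (0.51, SE 0.13, adjusted p = 0.0361) and Arsa (0.97, SE 0.25, adjusted p = 0.0369), and negative for Ids (-0.58, SE 0.15, adjusted p = 0.0430). For Grn the difference was 0.67 and did not pass (SE 0.21, adjusted p = 0.0801), and for Gusb it was 0.21 (SE 0.16, adjusted p = 0.500), with a 95% interval of -0.13 to 0.54. Tfe3 at 0.46 (adjusted p = 0.0841) and Sqstm1 at 0.47 (adjusted p = 0.0995) did not pass in edgeR, and DESeq2 called both and Grn. Ctsl kept its call under every alternative run, among them the omission of each library in turn (adjusted p up to 0.00836). The calls of Map1lc3b, Arsa and Ids each ended without 11 of the 16 libraries (adjusted p up to 0.0807, 0.0740 and 0.0875), and each of the 16 except female LKO 7 and female floxed 4 ended at least 1 of them. Without female LKO 7 or without female floxed 4, 6 genes were called (8.77% and 6.93% of all genes). Without male floxed 1 and 2 together Ctsl alone was called (1.45% of all genes). With library totals in place of TMM, 1 higher and 1 lower remained (5.59% of all genes).

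Averaged over both sexes, 8 of the 42 genes were higher and 2 lower in LKO livers (23.8%, where 8.55% of all 16126 genes tested were called, 4.05% higher and 4.5% lower). The fit found the 6 genes of the female comparison here too, with Gusb at 0.37 (SE 0.08, adjusted p = 0.0109) having the smallest adjusted p. For Ctsl, Arsa and Ids the male log2 fold change had the opposite sign, so their average rests on the females. The effects of these genes and of Map1lc3b differed between the sexes in the test above, so their average does not describe a shared effect. The 4 genes called in the average and not between LKO and floxed livers of either sex alone were Ctsa at 0.18 (SE 0.05, adjusted p = 0.0295), Hexa at 0.20 (SE 0.06, adjusted p = 0.0363), Lipa at 0.34 (SE 0.10, adjusted p = 0.0454) and, lower, Glb1 at -0.27 (SE 0.08, adjusted p = 0.0406). In females Ctsa had 237, 238, 192 and 223 CPM in LKO and 176, 185, 194 and 194 CPM in floxed livers, and LKO female 7 was the one below the highest floxed livers. Lipa had 313, 252, 268 and 400.3 CPM in LKO females and 242, 218, 223 and 299 CPM in floxed females, with overlap, and a log2 fold change of 0.33 in females beside 0.34 in males. Glb1 had 8.71, 9.85, 8.91 and 11.1 CPM in LKO males and 10.5, 11.4, 10.7 and 10.98 CPM in floxed males. Lipa, Glb1, Ctsa, Hexa and Gusb each had log2 fold changes of 1 sign in both sexes. Grn and Map1lc3b did too, though their male effects were small. Ctsl and Gusb kept their calls without any 1 library, and Map1lc3b lost it without male LKO 6 (adjusted p = 0.0502). Of the other 7, each lost its call without 10 to 13 of the libraries (highest adjusted p 0.0681 for Ctsa to 0.0999 for Lipa), and each library except female LKO 7 ended at least 1 of these calls. The count of called genes ran from 2 without male LKO 6 (4.81% of all genes) to 14 without female LKO 7 (13.8%), and with library totals it was 3 higher and 2 lower (9.02%). Without male floxed 1 and 2 together it was 6 (6.51%), and Ctsa, Glb1, Ids, Arsa and Grn were among the calls that ended.

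The other 20 members were called in none of the 5 comparisons. Beside Tfeb, Tfe3 and Sqstm1 these were the proteases Ctsd, Ctsz and Tpp1, the glycosidases Gla, Idua, Naglu, Man2b1, Manba and Neu1, the sulfatases Galns and Sgsh, the thioesterase Ppt1, the Atg8 gene Gabarapl1 and the membrane proteins Lamp2, Scarb2, Cln3 and Mcoln1. Their log2 fold changes ran from -0.07 (Naglu) to 0.51 (Galns) in LKO against floxed females and from -0.20 (Sqstm1) to 0.14 (Ctsd) in LKO against floxed males. Lamp2, which codes for the second major membrane glycoprotein and, in one isoform, the receptor of chaperone-mediated autophagy, gave 598 to 684 CPM in LKO and 564 to 639 CPM in floxed females, and 630.2 to 705 CPM in LKO and 646 to 687 CPM in floxed males. Scarb2, the gene of the receptor that carries glucocerebrosidase to the lysosome, gave 226 to 242 CPM in LKO and 213 to 237 CPM in floxed females. Both overlapped between genotypes. Tpp1, the gene of a tripeptidyl peptidase, gave 113 to 143 CPM in LKO and 99.7 to 119.6 CPM in floxed females, and Neu1, the sialidase gene, 48.7 to 60.4 CPM in LKO and 44.5 to 53.9 CPM in floxed females. In these 2 genes the overlap came from the highest floxed female, number 4, and the lowest LKO female, number 7, which for Neu1 was joined by number 8. Between floxed females and floxed males the 20 genes ran from -0.23 (Gabarapl1) to 0.24 (Cln3) on the log2 scale.

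Floxed females were set against floxed males in the same fit. Counts of females and of males were deposited separately, so sex and any difference in processing cannot be told apart here. Of the 42 genes 12 were higher and 4 lower in floxed females (38.1%, where 22.9% of all 16126 genes tested were called, 11.3% higher and 11.6% lower). The median log2 difference was 0.09, against 0.00 over all genes, and 17 genes did not overlap (24.1% of all genes), 12 of them higher in floxed females. Without female floxed 4 the median was 0.02, and 15 genes were called, 10 higher and 5 lower, where 18.4% of all genes were. Those higher were 5 proteases (Ctsc, Ctss, Ctsh, Ctsa and Ctsb), both cofactor precursors (Grn and Psap), both cholesterol exporters (Npc1 and Npc2), Asah1, Gaa and Glb1. Those lower were Arsa, Arsb, Lamp1 and Fuca1.

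Arsa had the largest log2 difference of the 42 genes. It had 18.7, 25.5, 34.6 and 24.4 CPM in floxed females and 108, 115, 103 and 78.3 CPM in floxed males, 0.255-fold by the fit (log2 fold change -1.97, SE 0.18, adjusted p = 1.75e-06). The 4 LKO females, at 37.8 to 65.3 CPM, lay above every floxed female and below every floxed male. Reads from Arsa and from its antisense neighbour C230037L18Rik, which shares 1190 bases with it, could be exchanged if counting ignored strand. Directional libraries were made, while for the counting no strand setting is given in the sources used here. The antisense gene gave 0.555 to 1.43 CPM in floxed females and 3.26 to 5.57 CPM in floxed males. It too was lower in floxed females than in floxed males. The part of exchanged reads in the counts of Arsa was not tested.

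Arsb, which codes for arylsulfatase B, had 28.1, 32.7, 29.0 and 31.1 CPM in floxed females and 43.2, 44.1, 38.3 and 34.8 CPM in floxed males (log2 fold change -0.41, SE 0.08, adjusted p = 0.00222). In LKO livers it had 26.8, 29.4, 28.5 and 30.3 CPM in females and 42.1, 49.3, 42.7 and 46.4 CPM in males. No female, floxed or LKO, reached the lowest male. Fuca1, which codes for the alpha-fucosidase, had 71.0, 74.3, 74.2 and 66.4 CPM in floxed females and 82.2, 91.1, 92.5 and 86.3 CPM in floxed males (log2 fold change -0.30, SE 0.08, adjusted p = 0.0114), with 60.3, 66.1, 76.2 and 59.3 CPM in LKO females and 90.8, 91.9, 87.5 and 99.5 CPM in LKO males. Lamp1, one of the most abundant proteins of the lysosomal membrane, had 569, 651, 612 and 627 CPM in floxed females, all below the 806, 848, 736 and 701 CPM of floxed males (log2 fold change -0.33, SE 0.08, adjusted p = 0.00701). LKO males had 797, 887, 792 and 845 CPM. The calls of Arsb and Lamp1 held without any 1 library and ended without male floxed 1 and 2 together, where that of Lamp1 had an adjusted p of 0.108 and a log2 difference of -0.22.

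Ctsc and Ctss, the proteases with the largest differences, are known for their work in leukocytes. Cathepsin C activates serine proteases of granules, and cathepsin S trims the invariant chain of MHC class II in antigen-presenting cells. Ctsc had 128, 147, 156 and 168 CPM in floxed females and 86.0, 71.0, 67.8 and 77.3 CPM in floxed males (log2 fold change 0.99, SE 0.16, adjusted p = 0.000544). In LKO livers it had 150.2, 226, 223 and 124 CPM in females and 60.6, 64.2, 67.4 and 82.3 CPM in males, with LKO females 6 and 7 highest. Ctss had 72.9, 68.4, 68.3 and 109 CPM in floxed females, the highest in number 4, and 56.2, 39.7, 31.6 and 37.9 CPM in floxed males (log2 fold change 0.94, SE 0.18, adjusted p = 0.00128). It had 94.7, 106, 93.0 and 85.5 CPM in LKO females and 33.1, 37.7, 40.1 and 49.0 CPM in LKO males. For both genes every female library lay above every male library. Ctsh, the gene of an aminopeptidase, had 289.6, 289, 270.0 and 300.4 CPM in floxed females and 216, 234, 235 and 222 CPM in floxed males (log2 fold change 0.34, SE 0.06, adjusted p = 0.000996), and 289, 285, 297 and 259 CPM in LKO females and 216, 227, 226 and 222 CPM in LKO males. Ctsa had 187 ± 8.56 CPM in floxed females and 152 ± 4.90 CPM in floxed males (SD, n = 4 each; log2 fold change 0.30, SE 0.07, adjusted p = 0.00544). Ctsb had 696, 636, 678 and 653 CPM in floxed males and 665, 656, 669 and 697 CPM in LKO males beside the female values above (log2 fold change 0.27, SE 0.08, adjusted p = 0.0212 for floxed females against males). Its call ended without male floxed 2 or female floxed 4 (adjusted p up to 0.0646), and without male floxed 1 and 2 together (0.0845).

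Grn was higher in floxed females (261 ± 62.5 CPM) than in floxed males (149 ± 24.3 CPM; SD, n = 4 each; log2 fold change 0.81, SE 0.15, adjusted p = 0.00133), the same direction as in LKO against floxed females. Psap had 842 ± 127 CPM in floxed females and, in every floxed male, less: 676, 634, 626 and 604 CPM (log2 fold change 0.41, SE 0.09, adjusted p = 0.00425). LKO males had 628, 672, 666 and 687 CPM. The 2 cholesterol exporters work in turn, NPC2 binding cholesterol in the lumen and NPC1 taking it through the membrane. Npc1 had 199.7, 209, 176 and 175 CPM in floxed females, all above the 137, 155, 167 and 131 CPM of floxed males (log2 fold change 0.37, SE 0.09, adjusted p = 0.00579), with 213, 179, 204 and 199 CPM in LKO females and 170.0, 159, 161 and 163 CPM in LKO males. Npc2 had 88.3, 85.7, 82.9 and 101 CPM in floxed females and 74.4, 61.6, 64.8 and 68.1 CPM in floxed males (log2 fold change 0.41, SE 0.08, adjusted p = 0.00182), with 83.6, 80.0, 88.3 and 71.8 CPM in LKO females and 65.6, 73.8, 69.8 and 70.4 CPM in LKO males. Neither exporter was called between LKO and floxed livers in either sex.

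Gaa, coding for the alpha-glucosidase that degrades lysosomal glycogen, had 111, 106, 101 and 135 CPM in floxed females and 82.7, 86.2, 84.1 and 83.0 CPM in floxed males (log2 fold change 0.43, SE 0.10, adjusted p = 0.00432), and 143, 116, 114 and 149 CPM in LKO females and 82.4, 78.0, 82.4 and 83.5 CPM in LKO males. No male library reached the lowest female one. Asah1, the gene of acid ceramidase, had 41.6, 35.0, 32.7 and 54.1 CPM in floxed females and 33.7, 28.5, 26.7 and 30.9 CPM in floxed males (log2 fold change 0.45, SE 0.13, adjusted p = 0.0223), with overlap between floxed female 3 and floxed male 1, and 49.5, 46.6, 39.0 and 38.8 CPM in LKO females and 30.3, 34.0, 30.6 and 33.7 CPM in LKO males. Its call ended without male floxed 2 or 3 or female floxed 1 or 4 (adjusted p up to 0.0856), and without male floxed 1 and 2 together (0.0576). Glb1 was 0.31 higher on the log2 scale (adjusted p = 0.0499), and its call ended without 12 of the 16 libraries (adjusted p up to 0.118), all except male LKO 8, female LKO 6 and 8 and female floxed 4. It ended also without male floxed 1 and 2 together (0.150). The other 13 calls between the sexes held without any 1 library. Tfeb, Tfe3, Sqstm1, Map1lc3b and Ctsl were not called between floxed females and males, with 95% intervals of -0.26 to 0.36, -0.05 to 0.39, -0.19 to 0.29, -0.29 to 0.10 and -0.12 to 0.23 on the log2 scale.

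**Figure D5:**
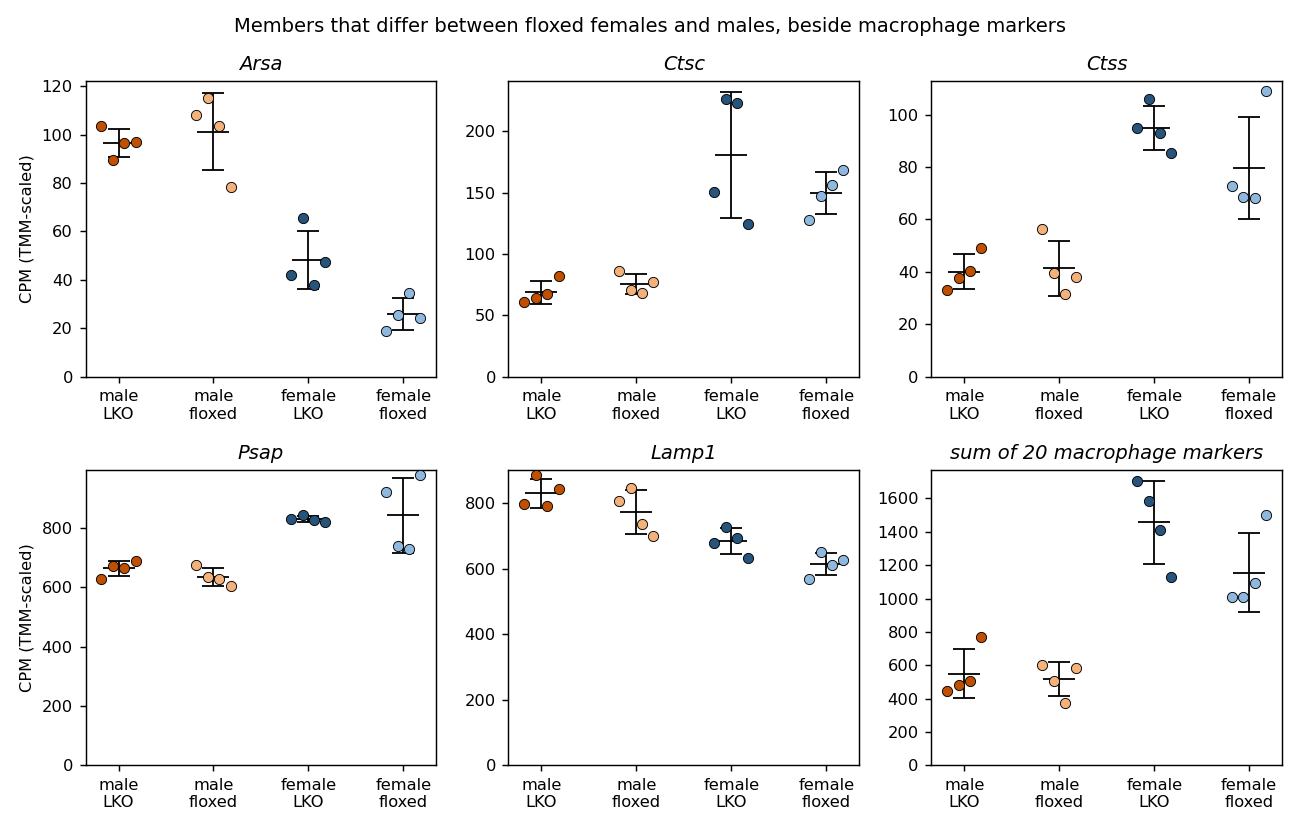
TMM-scaled CPM of 5 members called between floxed females and floxed males, and the summed CPM of 20 macrophage and monocyte markers, in all 16 livers (points) with mean and SD per group of 4. Ctsc, Ctss, Psap and the marker sum are higher in the female groups, Arsa and Lamp1 lower.

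Markers of other cell types moved with some of these contrasts. Their counts stand beside 22.9% of all genes called between floxed females and males and 9.29% called between LKO and floxed females. Between floxed females and males, 13 of 20 macrophage and monocyte markers were higher in floxed females, among them Vsig4 (1.68), Clec4f (1.36) and C1qa (1.11 on the log2 scale), and 1 was lower. Their sum ran from 1009 to 1502 CPM in floxed females and from 376 to 599 CPM in floxed males. All 20 were detected, and female floxed 4 had the highest sum of its group, as it had for Ctss, Grn and Neu1. Of 11 neutrophil markers tested 8 were higher in floxed females, with sums of 13.3 to 109.9 CPM in floxed females and 6.13 to 11.6 CPM in floxed males. Without female floxed 4, whose sum was 109.9 CPM, 0 of 11 were called, while 12 of 20 macrophage markers were still higher (18.4% of all genes called). The neutrophil gene Ly6g was at 0 in 8 of the 16 libraries. Between LKO and floxed females, 1 of 20 macrophage markers was called (Itgam, 1.24 higher), and the sums overlapped at 1129 to 1702 CPM in LKO and 1009 to 1502 CPM in floxed females. Without female floxed 4 the number was 4, and without female floxed 4 and LKO 7 it was 6. The share over all genes rose as well, to 12.9% and 19.6%. Neutrophil markers summed to 30.4 to 141 CPM in LKO females and 13.3 to 109.9 CPM in floxed females, with 0 of 11 called (7 without female floxed 4). Sinusoidal endothelial markers were lower in LKO females for 11 of 17, among them Flt4 (-0.82), Oit3 (-1.001) and Fcgr2b (-0.97), with sums of 342 to 441 CPM in LKO and 452 to 522 CPM in floxed females. Acute-phase genes of the hepatocyte were higher in LKO females for 19 of 24, among them Saa2 (4.72), Saa1 (3.89) and Socs3 (1.19), with sums of 85968 to 176795 CPM in LKO and 37716 to 56314 CPM in floxed females. Stellate cell markers were lower in LKO females for 2 of 12, Reln (-0.57) and Lrat (-0.74), with sums of 480.2 to 526 CPM in LKO and 549 to 649 CPM in floxed females. Between floxed females and males 3 of the 12 were lower in floxed females, Col1a1 (-2.08), Col3a1 (-1.67) and Col1a2 (-1.34), and 1 was higher. Of 7 cholangiocyte markers tested, Epcam was lower in LKO females (-0.87), and none of 12 lymphocyte markers was called there. Of 12 hepatocyte markers 3 were higher in LKO females, Fgb (1.16), Hnf4a (0.52) and Pck1 (0.77). Fgb is in both lists and is also 1 of the 19 acute-phase genes counted above. The other 2 called, Alb (-0.88) and Ttr (-0.75), named after their values were seen, were lower. Alb, the gene of serum albumin, had 17335 to 30347 CPM in LKO and 42313 to 49505 CPM in floxed females, with no overlap. In males none of these lists had a called gene between LKO and floxed livers. The part of these cell types and of the acute-phase genes in the levels of the 42 genes was not tested.

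Other genes of the pathway, taken from 7 lists, were set beside the 9.29% of all genes called in LKO females. Of 28 further hydrolases and activators tested, Dpp7 (0.75) and Plbd2 (0.37) were higher and Gm2a, the activator of ganglioside degradation, lower (-0.54 on the log2 scale). Of 17 subunits of the vacuolar ATPase, the proton pump that acidifies the lysosome, Atp6v0e2 (1.32) and Atp6v0c (0.35) were higher and none was lower. Of 19 genes that sort enzymes to the lysosome, Cln6 (0.84) and Ap3b1 (0.34) were higher. Of 33 genes of the core autophagy machinery, Vmp1, needed to form the autophagosome membrane, was higher (0.71) and Atg3, the enzyme that joins LC3 to lipid, lower (-0.37). Of 23 genes that control TFEB and TFE3, Ppargc1a was higher (0.94), and of 23 other lysosomal membrane proteins Tmem63a was lower (-0.51). None of 13 other Atg8 proteins and autophagy receptors was called. The calls of Vmp1 and Atp6v0e2 held without any 1 library, and each of the others ended without 2 to 7 of the 8. Without female floxed 4 and LKO 7 the hydrolases had 9 higher and 2 lower and the pump subunits 10 higher, where 19.6% of all genes were called. In males none of the 7 lists had a called gene by edgeR. The difference between the sexes' effects was called for 4.42% of all genes. In these lists it was called for Fnip2 (-0.996) of 23 control genes, Tmem63a (-0.70) of 23 membrane proteins and Ap3b1 (0.36) of 19 sorting genes. The other lists had no call there. Averaged over the sexes, where 8.55% of all genes were called, 5 pump subunits were higher and none lower, and 5 hydrolases were higher and 1 lower. In the sorting list Cln6 (0.61) and Ap3b1 (0.16) were higher, in core autophagy Atg3 (-0.21) and Stx17 (-0.19) were lower, and Tollip, coding for an adaptor of autophagy, was higher (0.14). The 2 other lists had no call. Between floxed females and males, where 22.9% of all genes were called, 7 hydrolases were higher and 3 lower in floxed females, 1 pump subunit was higher and 5 lower, and 3 core autophagy genes were higher and 5 lower. In the other lists, 1 of 19 sorting genes and 2 of 13 other Atg8 proteins and receptors were lower. Of 23 membrane proteins 3 were higher and 1 lower, and 7 of 23 genes that control TFEB and TFE3 were called, in both directions.

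Reads of some members could be shared with neighbours. Map1lc3b lies on chromosome 8 within the annotated span of Gm20388, a longer model on the same strand that is not in both tables, and overlaps 58 bases of Zcchc14 on the other strand. Zcchc14 had 40.5 to 45.1 CPM in LKO females and 44.1 to 48.0 CPM in floxed females. Ctsl overlaps the antisense gene Gm47123, which reached at most 0.414 CPM in LKO females and 0.374 CPM in floxed females. Grn overlaps Fam171a2 by 68 bases, at 0.983 to 1.31 CPM in LKO females and 1.25 to 1.53 CPM in floxed females. Ctsa shares 1515 bases with Pltp on the other strand, and Pltp had 73.9 to 89.4 CPM in LKO males, all above the 40.5 to 73.6 CPM of floxed males. Glb1 overlaps Tmppe by 6172 bases of annotated span on the same strand. Tmppe had 3.08 to 3.82 CPM in floxed females and 1.55 to 3.02 CPM in floxed males, and 3.21 to 4.20 CPM in LKO females and 2.12 to 2.81 CPM in LKO males. Ctsb shares 774 bases with Fdft1 on the other strand. Fdft1 had 61.6 to 170 CPM in floxed females and 49.9 to 72.9 CPM in floxed males. In LKO livers it had 21.3 to 52.4 CPM in females and 65.6 to 77.1 CPM in males. The share of such reads in the counts was not tested.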

How the data were processed

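Counts per gene were deposited by the authors as raw values, 1 table for males and 1 for females. Per the labels' protocols, RNA was taken from liver with TRIzol and poly(A) libraries were directional. Per the submitters' processing notes the genome was mm10. The program that made the counts is not given in the sources used here. Gene symbols, positions and exon lengths came from GENCODE M21, and promoters from RefSeq (GRCm38.p6).

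Genes with low counts were removed with filterByExpr (minimum count 10, minimum total 15), libraries were scaled by TMM, and edgeR 4.0.16 (R 4.3.3) was used for quasi-likelihood tests with Benjamini-Hochberg adjustment over all genes tested, at 0.05. Each sex was fitted alone, over its own identifiers (24623 in the male and 24840 in the female table). The difference between the sexes' effects, their average and the contrast of floxed females with floxed males came from 1 fit of 16 libraries over the 23167 shared identifiers. Printed CPM were TMM-scaled over all 16 libraries. Intervals are 95%. Each library is 1 mouse, so p-values set a difference against the spread between mice, with 4 mice a group. That spread was estimated over all libraries of a fit. The contrast of floxed females with floxed males thus drew on the spread of LKO livers too. No 2 libraries of a group differed by as little as sampling noise (lowest chi-square per degree of freedom 13.7, where noise gives about 1).

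The 42 genes and all lists were chosen with earlier results of these data known. Values in every library are given for the members called in at least 1 of 5 comparisons and for Tfeb, Tfe3, Sqstm1, Lamp1 and Ctsb. Of other lists, up to 3 called genes are named per comparison. Alternatives were other scalings, other filters, a robust fit, DESeq2 1.42.0, all libraries in 1 fit, a replicate block, and each library left out. The omission of 2 female libraries and of 2 male libraries was added after the data were seen. The female pair lay nearest to the opposite group, so counts without it, in any list, are no independent test. The test script was tested on simulated data.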

Additional observations from a re-analysis of the deposited data

Results flagged for a closer look

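Of 168 group values tested for a library far from the other 3 of its group (Dixon's ratio of gap to range), 8 were found (4.76%), where chance gives about 1 in 20. In female floxed 4, Ctss had 109 CPM (68.3 to 72.9 CPM in the other floxed females), Grn 354 CPM (224 to 237 CPM) and Neu1 53.9 CPM (44.5 to 45.7 CPM). The same library had the highest macrophage and neutrophil marker sums of its group, 1502 and 109.9 CPM. In female floxed 1, Hexa had 63.3 CPM (71.4 to 72.8 CPM in the others) and Idua 12.7 CPM (10.5 to 10.7 CPM). In male LKO 5, Sgsh had 11.1 CPM (9.43 to 9.53 CPM in the other LKO males) and Tfeb 11.6 CPM (8.80 to 9.09 CPM). In male LKO 7, Mcoln1 had 43.4 CPM (46.2 to 46.6 CPM in the others).

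The effect of the deletion differed between females and males for 4 genes in the fit of all libraries. The log2 difference, female effect minus male effect, was 0.86 for Ctsl, 0.97 for Arsa, 0.51 for Map1lc3b and -0.58 for Ids.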

How the results depend on the processing

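In LKO males DESeq2 called 2 genes (2.98% of all genes), where edgeR called 0 under every alternative run with it and without any 1 library (0 to 0). In LKO females the count of 6 was 10 with DESeq2 (14.6% of all genes), 12 with all 16 libraries in 1 fit (17.7%), 15 without female floxed 4 and LKO 7 (19.6%), and 2 to 9 without 1 library (2.53% to 14.7%). For the difference between the sexes' effects the count of 4 was 7 with DESeq2 (9.46%), 2 with library totals (5.59%), 2 with no filter (2.67%), 11 without female floxed 4 and LKO 7 (12.5%), 1 without male floxed 1 and 2 (1.45%), and 1 to 6 without 1 library (2.49% to 8.77%). For the average the count of 10 was 5 with library totals (9.02%), 6 with no filter (5.03%), 19 without female floxed 4 and LKO 7 (17.8%), 6 without male floxed 1 and 2 (6.51%), and 2 to 14 without 1 library (4.81% to 13.8%). Between floxed females and males the count of 16 ran from 12 to 18 over all alternatives and from 13 to 16 without 1 library. The cause of these shifts was not tested. Replicate numbers are shared by male and female libraries of a genotype, but the deviations of same-numbered libraries correlated at -0.119 to 0.13, with 2 of 8 pairs above 0.1 and 2 of 8 best matched to their own number, so that they share only a number. With the replicate block, 2 genes were called for the difference (1 of the 4) and 14 between the sexes, where Ctsb and Glb1 lost their calls (adjusted p = 0.0691 and 0.114). Reversed signs were found for genes that were not called: in males Ctsb ran from -0.0080 to 0.036 and Tfeb from -0.12 to 0.037 on the log2 scale without 1 library, and Tfe3 and Sqstm1 stood at 0.0040 and 0.0034 without male floxed 1 and 2. In females Ctsb ran from -0.072 to 0.025 and Tfeb from -0.022 to 0.20 without 1 library. No scaling moved the median of all genes by over 0.1.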
